A study of Mus musculus with 20 samples.

Results

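The pumps, the exchanger and the small inhibitors that clear Ca2+ from the cytosol of the heart muscle cell are described here, in hearts of mouse embryos from which the histone methyltransferase gene Kmt2d had been deleted. The 8 genes are Atp2a1, Atp2a2 and Atp2a3 (the SERCA pumps of the sarcoplasmic and endoplasmic reticulum), Pln (phospholamban) and Sln (sarcolipin), Slc8a1 (the sodium-calcium exchanger NCX1), and Atp2b1 and Atp2b4 (the plasma membrane pumps PMCA1 and PMCA4). They were chosen as a list of symbols, by no rule on measured values but with earlier results of these data known. All 8 of them were found among the 33495 genes of the deposited table. RNA was sequenced from 20 libraries, all of C57BL/6 background. Mesp1Cre, which is active in early mesodermal precursors, was sampled as whole hearts at E9.0 with 4 mutants and 4 controls. Mef2cAHF::Cre, which is active in precursors of the anterior heart field, was sampled as right ventricle and outflow tract at E11.5 with 3 libraries of each genotype. Tnnt2::Cre, which is active in embryonic myocardium, was sampled as whole hearts at E11.5 with 3 mutants and 3 controls. Mutants were Cre; Kmt2d fl/fl; mTmG/+ and controls were Cre; Kmt2d fl/+; mTmG/+, so every control carried the Cre driver, the mTmG reporter and 1 floxed Kmt2d allele exposed to Cre. Cre line, stage, tissue and sequencing group changed together and cannot be told apart.

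For Mef2cAHF::Cre the sources disagree on genotype. The sample titles call 3 libraries mutant that the column names of the table call WT, and the reverse. Genotypes were taken from the titles here, so that "labelled mutant" and "labelled control" mean the title's word for a library, and taking them from the column names turns every sign of this line. Over the whole Kmt2d gene, Mesp1Cre mutants had 128 to 144 CPM (counts scaled to library size) and controls 152 to 164 CPM (log2 fold change -0.21, SE 0.07, adjusted p = 0.0764 by edgeR). Tnnt2::Cre mutants had 107 to 116 and controls 119 to 159 CPM (-0.35, SE 0.12, adjusted p = 0.327). The Mef2cAHF::Cre libraries labelled mutant had 187 to 194 and those labelled control 146 to 156 CPM (0.32, SE 0.06, adjusted p = 0.0359), so the gene targeted goes against the titles in this line, and in the other lines mutants lay below controls without passing the threshold. The counts cover the whole gene and not the deleted exons alone. Libraries held 21727258 to 45341870 counted reads. All 10 cardiomyocyte markers, including Tnnt2, Actc1 and Ttn, had more than 3 reads in at least 1 library of each line, and their summed level was 25602 to 61541 CPM over the 20 libraries. Summed erythroid markers were at 1942 to 7615 CPM in Mesp1Cre mutants and 5468 to 18035 in controls with 3 of 9 lower, at 25030.4 to 47225 in the Mef2cAHF::Cre libraries labelled mutant and 7299.8 to 32457 in those labelled control with 0 of 9 past the threshold, and at 18043 to 122322 in Tnnt2::Cre mutants and 95722 to 149720.0 in controls with 0 of 9 past the threshold. Of the other marker lists, 1 of 4 smooth muscle, 1 of 2 tested macrophage and 1 of 6 atrial markers were lower in Mesp1Cre mutants, against 5.29% of all genes. In any line, 0 of 4 epicardial markers passed.

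As background, each heartbeat raises cytosolic Ca2+, and relaxation requires its removal. The SERCA pumps return Ca2+ to the sarcoplasmic reticulum, and Atp2a2 encodes the cardiac form. Phospholamban and sarcolipin are short membrane proteins that bind SERCA and lower its affinity for Ca2+, and phosphorylation of phospholamban relieves that inhibition. NCX1 moves Ca2+ out of the cell in exchange for Na+, and the PMCA pumps extrude Ca2+ at the plasma membrane with a smaller capacity.

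The inhibitors are encoded by reading frames short enough to show whole, and their levels are set against those of the pumps below. The Pln frame has 52 codons before its stop and the Sln frame has 31. Both are given from the GENCODE M1 transcripts, with the start and stop codons in capitals:
Pln: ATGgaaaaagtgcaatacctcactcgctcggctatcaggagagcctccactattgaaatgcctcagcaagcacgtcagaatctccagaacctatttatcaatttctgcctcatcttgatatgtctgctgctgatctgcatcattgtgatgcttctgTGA
Sln: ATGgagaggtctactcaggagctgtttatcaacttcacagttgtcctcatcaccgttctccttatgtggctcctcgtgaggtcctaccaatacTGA
Of the 8 genes, 6 had an entry in the RefSeq promoter windows of GRCm38.p6, which run from 250 bases before to 50 bases after a start site. The windows of the 3 genes that changed in Mesp1Cre are shown, 5′ to 3′ on the strand of the gene, with CANNTG (the E-box) and ACGTG (the core of the hypoxia response element, searched on both strands) in capitals. They lie at chr7:126463024-126463323 on the minus strand for Atp2a1, chr10:53337436-53337735 on the plus strand for Pln and chr11:72960919-72961218 on the plus strand for Atp2a3:
Atp2a1: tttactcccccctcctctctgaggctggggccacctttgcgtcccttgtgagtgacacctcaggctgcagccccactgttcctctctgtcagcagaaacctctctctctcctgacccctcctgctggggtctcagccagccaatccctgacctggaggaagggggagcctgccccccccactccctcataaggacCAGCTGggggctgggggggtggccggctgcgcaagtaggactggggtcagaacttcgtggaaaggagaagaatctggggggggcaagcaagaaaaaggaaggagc
Pln: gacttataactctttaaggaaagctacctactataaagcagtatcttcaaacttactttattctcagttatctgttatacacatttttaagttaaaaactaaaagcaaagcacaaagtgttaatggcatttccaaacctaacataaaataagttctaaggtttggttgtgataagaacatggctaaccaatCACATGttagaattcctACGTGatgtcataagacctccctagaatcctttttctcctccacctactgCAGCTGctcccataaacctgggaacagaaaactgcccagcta
Atp2a3: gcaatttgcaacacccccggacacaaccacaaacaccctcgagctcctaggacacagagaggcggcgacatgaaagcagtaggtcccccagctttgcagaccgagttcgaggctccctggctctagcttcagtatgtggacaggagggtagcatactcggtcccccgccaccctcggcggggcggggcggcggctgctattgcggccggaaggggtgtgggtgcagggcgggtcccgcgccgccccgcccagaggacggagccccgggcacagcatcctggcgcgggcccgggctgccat
The Atp2a1 window held 1 CANNTG, the Pln window held 2 CANNTG, 1 ACGTG, 1 TATAAA and 2 GATAA, and the Atp2a3 window held none of these. Of 32851 windows of the same length, 72.3% held CANNTG, 19.6% ACGTG, 13.6% TATAAA and 25.4% GATAA on either strand. The CArG box and the MEF2 motif, found in 1.63% and 0.557% of all windows, were in none of the windows of these 6 genes. These are letter matches only.

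The levels of the 8 genes spanned a wide range. FPKM, the authors' fragment count scaled by gene length and library size, is used to compare genes with each other. By this FPKM, Atp2a2 was the most abundant in every group. Its group means ran from 184 ± 14.3 FPKM (SD, n = 3) in the Mef2cAHF::Cre libraries labelled mutant to 357 ± 40.8 FPKM (n = 3) in the Tnnt2::Cre mutants. It made up 97.98 to 99.73% of the summed SERCA FPKM in every library. By the same measure, at E9.0 Slc8a1 (156 ± 14.3 FPKM in Mesp1Cre controls, n = 4) stood above Pln (37.4 ± 3.07 FPKM). At E11.5 their FPKM order was the opposite, with Pln at 130.3 ± 16.8 and Slc8a1 at 92.6 ± 7.75 FPKM in Tnnt2::Cre controls (n = 3). Atp2b1 (18.2 to 31.6 FPKM as group means) and Atp2b4 (6.25 to 16.4 FPKM) followed. Atp2a1, Atp2a3 and Sln were low, with group means of 0.214 to 2.24, 0.161 to 2.57 and 0.0169 to 3.28 FPKM. In the Mef2cAHF::Cre libraries labelled mutant, Atp2a2 (168 to 194 FPKM) and Pln (176 to 177 FPKM) overlapped, and in the Mesp1Cre mutants Pln (13.2 to 32.2 FPKM) overlapped Atp2b1 (27.3 to 34.2 FPKM). Among the 3 low genes no ranges overlapped in the Mesp1Cre controls, and in each of the other 5 groups at least 1 pair of neighbours did. The length behind the FPKM of Slc8a1 is 18636 bases, against 3068 exonic bases in GENCODE M1, so its FPKM depends on a long feature whose 3′ end lies beyond that annotation. In reads, Slc8a1 exceeded Atp2a2 in every library except Tnnt2::Cre mutants 1 and 2, as with 83965 against 49663 in Mesp1Cre control 1. The rank of Slc8a1 against Atp2a2, and against Pln at E11.5, therefore rests on the length used.

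**Figure D1:**
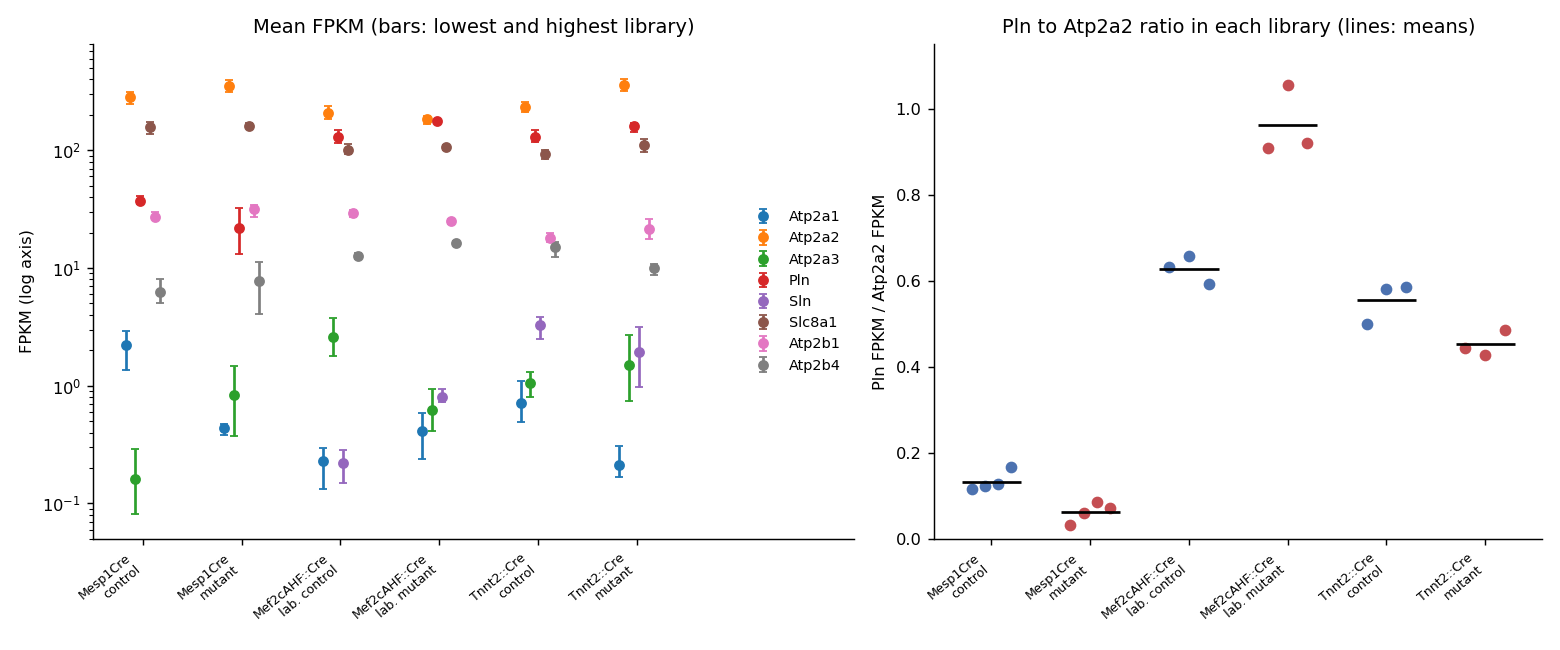
Left, mean FPKM of each of the 8 genes (log axis) in the 6 groups of libraries, with bars from the lowest to the highest library; Sln in the 2 Mesp1Cre groups is left out because most of those libraries had 0 reads. Right, the ratio of Pln to Atp2a2 FPKM in each library, with blue points for controls, red points for mutants and a line at each mean: the ratio was 0.115 to 0.167 in the Mesp1Cre controls and 0.0332 to 0.0852 in the mutants, and all E11.5 libraries lay between 0.427 and 1.05.

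The first comparison asked what the loss of Kmt2d in mesodermal precursors does to these transcripts at E9.0. In Mesp1Cre mutants Atp2a1 and Pln fell and Atp2a3 rose, while Atp2a2, Slc8a1, Atp2b1 and Atp2b4 did not pass the test. Differences were tested with edgeR's quasi-likelihood test with Benjamini-Hochberg adjustment over all genes, at a threshold of 0.05. Of the 7 genes tested, 1 was higher and 2 were lower, against 6.17% of all genes higher and 5.29% lower. The CPM of mutants and controls did not overlap for 3 of the 7 genes tested, against 17.7% of all genes. They were the same 3 genes that passed, so this adds no separate support.

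Atp2a1, which encodes SERCA1, the pump of fast skeletal muscle, had 8.08, 5.62, 8.10 and 3.87 CPM in the 4 controls and 1.12, 1.01, 1.18 and 1.20 CPM in the 4 mutants. All mutants lay below all controls, and the mutants hardly differed among themselves. The fall was 5.67-fold (log2 fold change -2.50, SE 0.31, adjusted p = 0.000338), on 94 to 218 reads per control and 26 to 30 per mutant. The skeletal muscle markers moved with it: 2 of the 5 tested of 8 markers were lower in mutants and 0 higher, their summed level was 36.4 to 51.7 CPM in mutants and 83.2 to 113 CPM in controls, and the defining factors Myod1 and Myog had at most 3 reads in every library of this line. The markers that moved were Mylpf (log2 fold change -2.25, adjusted p = 0.000258), a myosin light chain, and Pygm (-0.94, adjusted p = 0.00234), the muscle glycogen phosphorylase. Whether skeletal muscle cells were present, and any part of them in the fall of Atp2a1, was not tested. In bulk tissue, fewer cells of a type and less RNA per cell cannot be told apart.

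Pln had 86.6, 96.0, 82.7 and 100.4 CPM in controls and 28.7, 45.0, 70.9 and 48.5 CPM in mutants. The highest mutant was below the lowest control, although the mutants spread more widely. Pln fell 1.89-fold (log2 fold change -0.92, SE 0.20, adjusted p = 0.0118), from 91.4 ± 8.17 to 48.3 ± 17.4 CPM (SD, n = 4 each). The summed level of the cardiomyocyte markers was 50006 to 61541 CPM in mutants and 39218 to 50724 CPM in controls, with 1 of 10 higher (Ttn, titin, 0.57, adjusted p = 0.00782) and 1 lower (Tnnc1, cardiac troponin C, -0.36, adjusted p = 0.00898).

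Atp2a3, which encodes SERCA3, a pump known from platelets, endothelium and other non-muscle cells, had 0.630, 0.923, 0.444 and 1.61 CPM in controls and 3.40, 4.32, 7.32 and 1.85 CPM in mutants. The lowest mutant was close to the highest control. The rise was 4.67-fold (log2 fold change 2.22, SE 0.50, adjusted p = 0.0134), on 11 to 39 reads per control and 46 to 167 per mutant. The megakaryocyte and platelet markers moved with Atp2a3, with 3 of the 6 tested of 7 markers higher and 0 lower: Pf4 (log2 fold change 3.14, adjusted p = 0.000961), Ppbp (5.28, adjusted p = 0.00117) and Gp1ba (1.32, adjusted p = 0.0121). Their summed level was 50.2 to 225 CPM in mutants and 11.4 to 24.4 CPM in controls. The endothelial markers were also higher, 475 to 539.8 against 372 to 430.3 CPM in sum, with 2 of 7 past the threshold. Their part in the rise of Atp2a3 was not tested.

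The remaining genes differed by less than the test could call. Atp2a2 had 1841, 1908, 1603 and 1469 CPM in controls and 2119, 1837, 2037 and 1633 CPM in mutants (log2 fold change 0.16, SE 0.10, adjusted p = 0.324). Slc8a1 had 3112, 3476, 2659 and 3082 CPM in controls and 2744, 2794, 3023 and 2735 CPM in mutants (-0.13, SE 0.08, adjusted p = 0.335). For both genes the groups overlapped. Atp2b1 was at 143 ± 15.1 CPM in mutants and 138 ± 10.3 CPM in controls (0.05, SE 0.09, adjusted p = 0.779, n = 4 each by edgeR). Atp2b4 was at 65.9 ± 25.1 and 59.7 ± 12.8 CPM (0.14, SE 0.24, adjusted p = 0.751). Sln had 1, 0, 0 and 0 reads in controls and 0, 8, 0 and 0 reads in mutants and could not be tested. With 0 reads in a library, up to 3 reads are possible by counting error alone. By 4 Y-linked genes, all 4 mutants and 2 of the 4 controls were male. Among the male libraries alone, an alternative chosen after seeing the data, Atp2a1 still passed, whereas Atp2a3 (log2 fold change 1.91, adjusted p = 0.113) and Pln (-0.96, adjusted p = 0.071) did not.

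**Figure D2:**
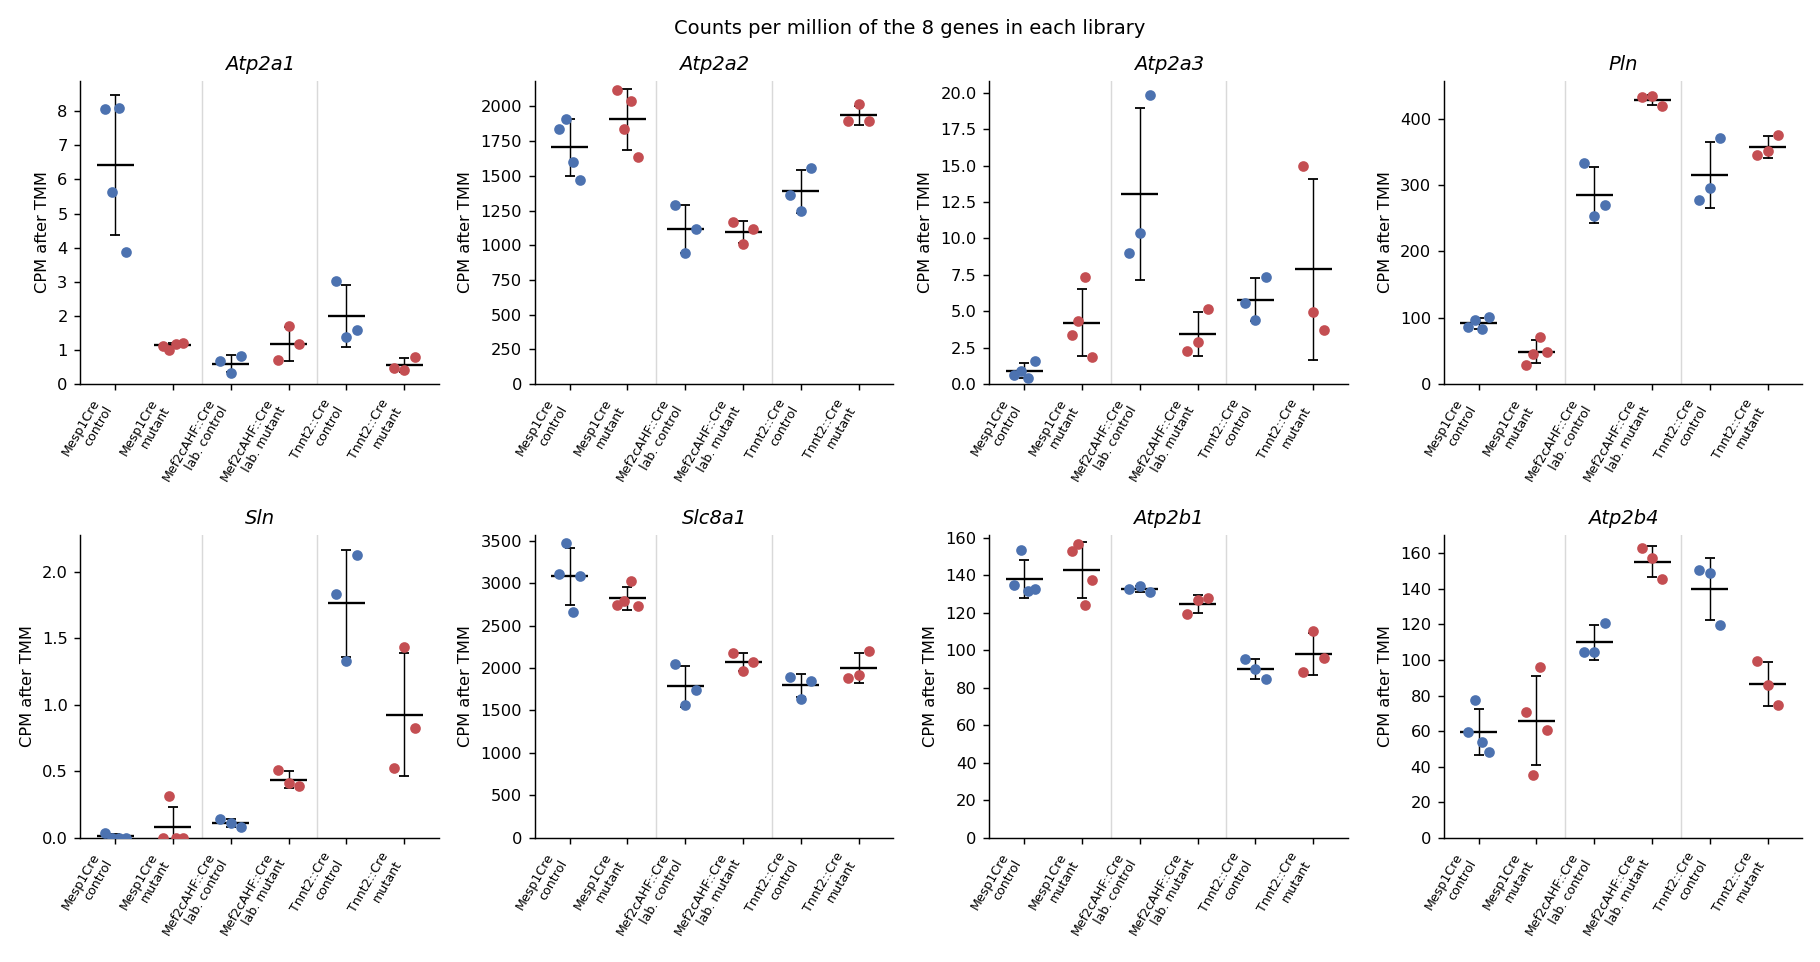
CPM after TMM scaling (linear axis from 0) of each of the 8 genes, one point per library, with blue for controls, red for mutants and black lines at the group mean with bars of 1 SD. Mef2cAHF::Cre groups are named by the sample titles; the panels show the 4 Mesp1Cre mutants below all 4 controls for Atp2a1 and Pln and above them for Atp2a3, and the single Tnnt2::Cre mutant with 15.0 CPM of Atp2a3.

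The second comparison addressed deletion in anterior heart field precursors. By the sample titles, Pln and Atp2b4 were higher and Atp2a3 was lower in mutants of Mef2cAHF::Cre. Genotypes from the column names give these 3 genes the opposite directions. Of 8 genes tested, 2 were higher and 1 was lower by the titles, against 1.81% of all genes higher and 1.04% lower. The groups did not overlap for 5 of the 8 genes, against 24% of all genes.

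Pln had 333, 253 and 269.8 CPM in the libraries labelled control and 432, 433 and 419 CPM in those labelled mutant, a 1.50-fold difference (log2 fold change 0.59 by the titles and -0.59 by the column names, SE 0.10, adjusted p = 0.0243). The 3 libraries labelled mutant lay close together and above all labelled control. The summed atrial markers (2169.9 to 2491 against 1329 to 2001 CPM) and ventricular markers (2139.5 to 2325 against 1505 to 1919.6 CPM) were also higher in the libraries labelled mutant, with 0 of 6 and 0 of 5 past the threshold, and their part in the difference of Pln was not tested.

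Atp2b4 had 104, 104 and 121 CPM in the libraries labelled control and 163, 157 and 146 CPM in those labelled mutant. This was a 1.41-fold difference (0.50 by the titles, -0.50 by the column names, SE 0.08, adjusted p = 0.0199). Atp2b1, the other plasma membrane pump, had 133, 134 and 131 CPM and 119, 127 and 128 CPM. The groups did not overlap, and the difference did not pass (-0.09 by the titles, 0.09 by the column names, SE 0.06, adjusted p = 0.503).

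Atp2a3 had 9.001, 10.4 and 19.8 CPM in the libraries labelled control and 2.30, 2.90 and 5.12 CPM in those labelled mutant, 3.74-fold lower (-1.90 by the titles, 1.90 by the column names, SE 0.36, adjusted p = 0.0300). As in Mesp1Cre, the megakaryocyte and platelet markers moved with it. Of the 7 markers, 5 were lower and 0 higher in the libraries labelled mutant, and their summed level was 59.8 to 113 CPM there and 229.9 to 583 CPM in those labelled control, none of the defining markers being at 0 throughout. The part of these cells was not tested.

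Sln was counted 4, 3 and 2 times in the libraries labelled control and 14, 11 and 14 times in those labelled mutant. Divided by library totals this is a ratio of 3.61 (95% interval 1.72 to 8.47, counting error only), and edgeR gave an adjusted p of 0.0621. With limma-trend Sln passed (adjusted p = 0.0341 on log2(FPKM + 0.1) and 0.0287 on log2(FPKM + 1)). Atp2a1 had 0.663, 0.325 and 0.812 CPM in the libraries labelled control and 0.692, 1.69 and 1.16 CPM in those labelled mutant (0.98 by the titles, -0.98 by the column names, SE 0.44, adjusted p = 0.286). The groups overlapped for Atp2a1. The summed skeletal muscle markers did not overlap, at 69.7 to 85.5 CPM in the libraries labelled mutant and 42.8 to 49.8 CPM in those labelled control. Of the 6 tested of 8 markers, 2 were higher and 0 lower by the titles, against 1.81% and 1.04% of all genes. Atp2a2 (1095 ± 80.5 CPM labelled mutant, 1117 ± 175 CPM labelled control, n = 3 each) and Slc8a1 (2075 ± 109 and 1784 ± 244 CPM) did not pass by edgeR (adjusted p = 0.935 and 0.309). All 3 calls of this line were lost in the fit that pools all 20 libraries (adjusted p of 0.12 for Atp2a3, 0.245 for Pln and 0.527 for Atp2b4 by edgeR). They were also lost without labelled mutant 1 or without labelled mutant 2, where 0 of the 8 genes passed. Over all genes, 129 of 18391 passed in the pooled fit, 78 of 17290 without labelled mutant 1 and 75 of 17259 without labelled mutant 2. With all libraries of the line, 482 of 16920 passed. Without labelled control 3 only Atp2b4 remained (329 of 17413 over all genes), and without labelled mutant 3 only Atp2a3 (148 of 17344).

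The third comparison addressed deletion in the myocardium. In Tnnt2::Cre none of the 8 genes passed the threshold by edgeR, against 0.293% of all genes. At an unadjusted p under 0.05, where 11.9% of all genes fell, the 4 genes Atp2a1, Atp2a2, Atp2b4 and Sln were found, and DESeq2's Wald test called 3 of them, against 2.06% of all genes. The groups did not overlap for 3 of the 8 genes, against 17.1% of all genes.

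Atp2a2 had 1364, 1248 and 1553 CPM in controls and 1898, 2014 and 1896 CPM in mutants, all mutants above all controls (log2 fold change 0.48, SE 0.13, adjusted p = 0.228 by edgeR and 0.0072 by DESeq2). Atp2b4 had 151, 149 and 119.9 CPM in controls and 99.5, 85.9 and 74.5 CPM in mutants, all mutants below all controls (-0.69, SE 0.14, adjusted p = 0.0983 by edgeR and 0.000567 by DESeq2). Atp2a1 had 3.02, 1.38 and 1.57 CPM in controls and 0.476, 0.402 and 0.797 CPM in mutants (-1.84, SE 0.41, adjusted p = 0.137 by edgeR and 0.00308 by DESeq2). The skeletal muscle markers were again on the same side, with 60.6 to 67.0 CPM in mutants and 77.9 to 94.4 CPM in controls in sum and 0 of 6 past the threshold, and their part was not tested.

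Sln had 82, 48 and 73 reads in controls and 22, 57 and 31 in mutants (-0.93, SE 0.39, adjusted p = 0.396), and the groups overlapped. Pln had 278, 296 and 371 CPM in controls and 345, 351 and 376 CPM in mutants (0.18, SE 0.13, adjusted p = 0.623). Slc8a1 was at 1999 ± 174 CPM in mutants and 1796 ± 139 CPM in controls (n = 3 each), and Atp2b1 at 98.1 ± 11.1 and 90.1 ± 5.39 CPM, with adjusted p of 0.697 and 0.701 by edgeR. Atp2a3 had 5.60, 4.40 and 7.37 CPM in controls and 15.0, 4.93 and 3.69 CPM in mutants (0.45, SE 0.47, adjusted p = 0.758). The mutant library with 15.0 CPM also held 792 CPM of megakaryocyte and platelet markers, against 172 to 353 CPM in the other 5 libraries of the line. Without it the log2 fold change of Atp2a3 was -0.43 (adjusted p = 0.41 by edgeR), and Atp2b4 passed (-0.81, adjusted p = 0.00993). Over all genes, 896 of 17487 passed without this library, against 50 of 17045 with it.

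**Figure D3:**
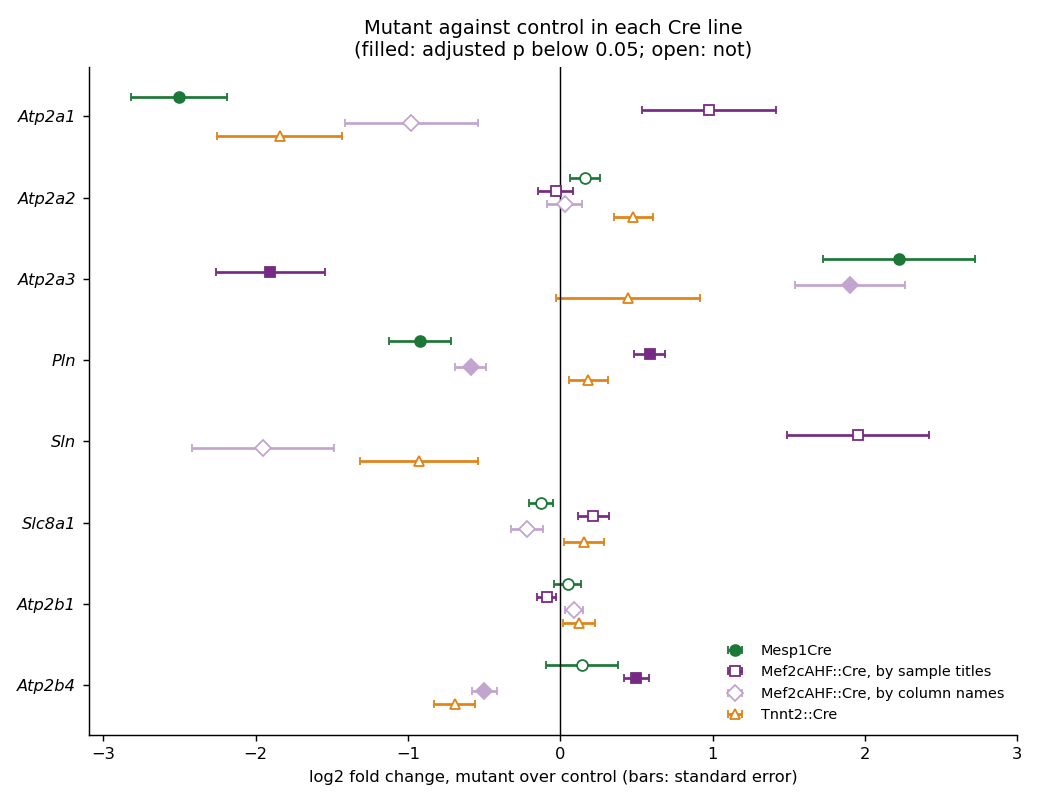
Log2 fold change of mutant over control (x axis) for each of the 8 genes in each Cre line, with bars of 1 standard error; filled symbols passed the threshold of 0.05 and open symbols did not. Mef2cAHF::Cre is drawn by the sample titles and by the column names, which mirror each other: Atp2a3 is at -1.90 by the titles and 1.90 by the column names, beside 2.22 in Mesp1Cre.

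**Figure D4:**
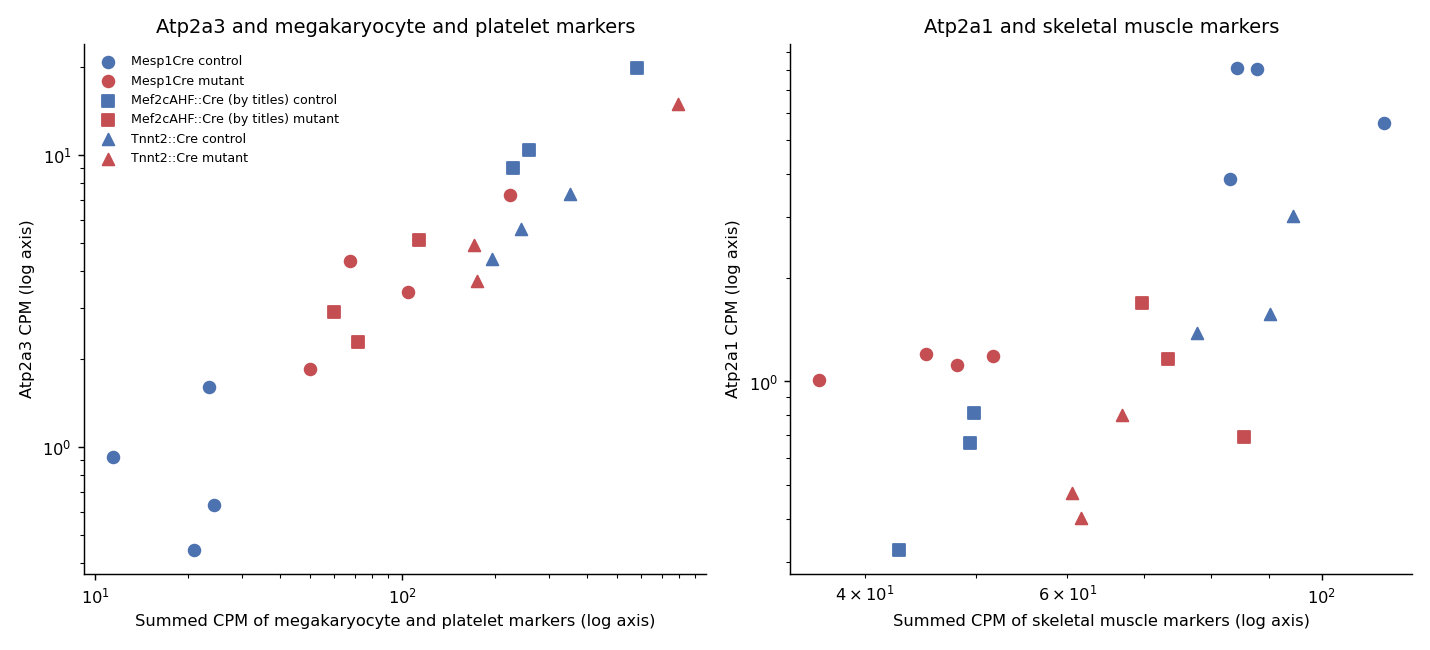
Left, Atp2a3 CPM against the summed CPM of 7 megakaryocyte and platelet markers; right, Atp2a1 CPM against the summed CPM of 8 skeletal muscle markers; all axes are log, and each point is 1 of 20 libraries, with circles for Mesp1Cre, squares for Mef2cAHF::Cre by titles and triangles for Tnnt2::Cre, blue for controls and red for mutants. On the left, the libraries with the highest marker sums (792 and 583 CPM) also have the highest Atp2a3 (15.0 and 19.8 CPM); on the right, the 4 Mesp1Cre controls have the highest Atp2a1.

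Whether the effect of genotype differed between lines was tested as an interaction in a fit of all 20 libraries. Between Mesp1Cre and Tnnt2::Cre, 1 of the 8 genes passed, against 3.04% of all genes: Pln, at -0.92 in Mesp1Cre and 0.18 in Tnnt2::Cre (difference -1.12, SE 0.26, adjusted p = 0.0251). It did not pass without Tnnt2::Cre control 1, control 2 or mutant 3. For Atp2a3 the difference was 1.76 (SE 0.72, adjusted p = 0.184) and for Atp2b4 0.82 (SE 0.30, adjusted p = 0.143). Atp2a3 passed without Tnnt2::Cre mutant 1, the library with 792 CPM of platelet markers (2.65, adjusted p = 0.0403), and Atp2b4 passed without Mesp1Cre mutant 2 (1.02, adjusted p = 0.0149). Between Mesp1Cre and Mef2cAHF::Cre the answer depended on the labels. By the titles, Atp2a1 (-3.50, SE 0.56, adjusted p = 0.000448), Atp2a3 (4.12, SE 0.74, adjusted p = 0.00128) and Pln (-1.53, SE 0.26, adjusted p = 0.000818) differed, against 11.3% of all genes. By the column names 0 of the 8 genes differed by edgeR, against 1.63% of all genes, with Atp2a1 (-1.55, adjusted p = 0.169) and Sln (adjusted p = 0.144) at an unadjusted p under 0.05, against 16.2% of all genes. DESeq2's Wald test called 1 of the 8, against 4.72% of all genes: Sln (adjusted p = 0.0459), which in Mesp1Cre mutants rests on the 8 reads of 1 library. Between Mef2cAHF::Cre and Tnnt2::Cre, by the titles, Atp2a1 (2.82, SE 0.60, adjusted p = 0.0120) and Atp2b4 (1.19, SE 0.32, adjusted p = 0.0480) differed, against 3.19% of all genes. With each of the 12 libraries of these lines left out in turn, Atp2b4 passed only without Tnnt2::Cre mutant 1, and with the replicate block neither gene passed (adjusted p = 0.0522 and 0.109). By the column names 0 of the 8 genes and 0 of 18391 tested genes passed by edgeR, while Atp2a2, Slc8a1 and Pln had an unadjusted p under 0.05, against 2.57% of all genes. The pairs of lines share libraries, so these 3 differences are not independent of each other.

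The controls were compared between E9.0 and E11.5 whole hearts, with line and sequencing group changing together with stage. Each control also carried 1 floxed Kmt2d allele exposed to the Cre of its own line. Of the 8 genes, 7 differed, against 39.6% of all genes, 4 of them higher and 3 lower at E11.5, against 21.7% and 17.9% of all genes. Pln was higher at E11.5 (log2 fold change 1.88, SE 0.18, adjusted p = 2.2e-07), as were Atp2b4 (1.32, SE 0.21, adjusted p = 6.3e-05) and Atp2a3 (2.78, SE 0.53, adjusted p = 0.000349). The summed platelet markers, whose part was not tested, were at 11.4 to 24.4 CPM in the E9.0 controls and 196 to 353 CPM in the E11.5 controls. Sln was counted 203 times in the 3 E11.5 controls and 1 time in the 4 E9.0 controls, a ratio of 179 after division by library totals (95% interval 31.8 to 7118, counting error only; adjusted p = 2.0e-05 by edgeR). Atp2a1 (-1.59, SE 0.37, adjusted p = 0.00209), Slc8a1 (-0.69, SE 0.10, adjusted p = 2.4e-05) and Atp2b1 (-0.52, SE 0.09, adjusted p = 9.6e-05) were lower at E11.5. Atp2a2 did not pass (-0.20, SE 0.12, adjusted p = 0.184). The Mesp1Cre controls enter both this contrast and that of the Mesp1Cre mutants, where Atp2a1 was at -2.50, Atp2a3 at 2.22 and Pln at -0.92.

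Ratios within a library do not depend on how libraries are scaled. The ratio of Pln to Atp2a2, the inhibitor against its pump, was 0.115, 0.123, 0.126 and 0.167 in the Mesp1Cre controls and 0.0332, 0.0600, 0.0852 and 0.0728 in the mutants. The geometric mean of the ratio was 2.22-fold lower in mutants (difference of log2 ratios -1.15, two-sided exact permutation p = 0.0286, the smallest that 4 against 4 allows, adjusted p = 0.121 over 17 tests). In the Mef2cAHF::Cre libraries it was 0.632, 0.657 and 0.591 labelled control and 0.909, 1.05 and 0.921 labelled mutant (0.62 by the titles, exact permutation p = 0.1, the smallest that 3 against 3 allows). In Tnnt2::Cre it was 0.498, 0.580 and 0.585 in controls and 0.445, 0.427 and 0.485 in mutants (-0.29, exact permutation p = 0.1). The ratio of Slc8a1 to Atp2a2, the exchanger against the pump, was 0.362 to 0.423 in the Tnnt2::Cre controls and 0.290 to 0.353 in the mutants (-0.33), and 0.475 to 0.504 labelled control and 0.567 to 0.593 labelled mutant in Mef2cAHF::Cre (0.24 by the titles). The ratio of Atp2b4 to Atp2b1 was 0.748 to 0.878 in the Tnnt2::Cre controls and 0.411 to 0.596 in the mutants (-0.81). In these 3 comparisons the groups did not overlap. In Mef2cAHF::Cre the ratio of Atp2b4 to Atp2b1 was 0.602 to 0.721 labelled mutant and 0.411 to 0.488 labelled control (0.59 by the titles). In Mesp1Cre the groups overlapped for Slc8a1 to Atp2a2 (0.394 to 0.509 in mutants, 0.504 to 0.638 in controls, -0.28) and for Atp2b4 to Atp2b1 (0.12 to 0.409 in mutants, 0.191 to 0.268 in controls, 0.03). With the smallest p that these group sizes allow, none of the 17 ratio tests could have passed after adjustment, and 3 had an unadjusted exact permutation p under 0.05. Of the ratios, 4 with Sln were not tested because a library had 3 reads or fewer.

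Of 15 other pumps and exchangers listed, 12 were tested in each line, and Slc24a4, a potassium-dependent sodium-calcium exchanger, was the 1 gene past the threshold, in Mef2cAHF::Cre (3.77 ± 0.40 CPM labelled mutant, 1.48 ± 0.546 CPM labelled control, n = 3 each by edgeR; log2 fold change 1.34 by the titles and -1.34 by the column names, adjusted p = 0.0376). This 1 of 12 stands beside 1.81% of all genes higher and 1.04% lower by the titles in that line. In Mesp1Cre 0 of 12 passed, against 6.17% of all genes higher and 5.29% lower. In Tnnt2::Cre 0 of 12 passed, against 0.293% of all genes in either direction. The medians of the list were 0.06, 0.05 and 0.08 in Mesp1Cre, Mef2cAHF::Cre and Tnnt2::Cre, against medians of 0.00, -0.01 and 0.00 over all genes.

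Of 31 listed regulators and partners of the pumps and exchanger, 30 were matched and 29 tested. In Mesp1Cre 3 were higher and 7 lower, against 6.17% of all genes higher and 5.29% lower. Among them were Ppp1r1a, which encodes inhibitor-1 of the phosphatase that dephosphorylates phospholamban (4.82 ± 0.813 against 19.7 ± 2.01 CPM, n = 4 each by edgeR, log2 fold change -2.03, adjusted p = 1.9e-05), Bsg, a chaperone of plasma membrane transporters (0.97, adjusted p = 4.1e-05), and Camk2a (-0.61, adjusted p = 0.0127) and Camk2d (0.51, adjusted p = 0.00537), kinases of the family that phosphorylates phospholamban. In Mef2cAHF::Cre 6 were higher and 0 lower by the titles (1.81% and 1.04% of all genes), with the reverse by the column names, among them Hrc, a Ca2+-binding protein of the reticulum (73.9 ± 5.15 against 19.4 ± 3.22 CPM, n = 3 each by edgeR, log2 fold change 1.93, adjusted p = 0.00042), Ppp1r1a (1.85), Fxyd1, phospholemman, which acts on the exchanger (1.42), Camk2a (1.38) and Thra, a thyroid hormone receptor (0.54). In Tnnt2::Cre 4 were lower and 0 higher, against 0.217% of all genes lower and 0.0763% higher: Fxyd1 (66.7 ± 9.17 to 25.0 ± 6.83 CPM, n = 3 each by edgeR, -1.42, adjusted p = 0.0274), Ppp1r1a (-1.37, adjusted p = 0.0179), Hrc (-1.22, adjusted p = 0.0179) and Camk2a (-0.98, adjusted p = 0.0113). The groups did not overlap for any of these genes, but they were named because they passed the test, so this adds no separate support. The medians of the list were -0.13, 0.09 and -0.07 in the 3 lines.

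The genes whose pattern was most like each member's were taken over the 20 libraries after the mean of each line was subtracted, as a description of libraries that share stage and blood content. Pln was closest to Cryab, a small heat shock protein of muscle (Pearson r = 0.95), and Smpx, a muscle protein (0.94). Atp2a3 was closest to Rab27b (0.93), which acts in platelet granules, and Alox12 (0.92), the platelet lipoxygenase. Atp2a1 was closest to Lphn1 (0.90) and Rspo3 (0.90), Atp2a2 to Akap2 (0.87) and Rbpms (0.86), Slc8a1 to Palld (0.86) and Plekha7 (0.86), Atp2b4 to Wnk1 (0.85) and Cdyl (0.82), and Atp2b1 to BC006779 (0.79) and Eml4 (0.78). Sln was not tested in every line and has no such value.

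In mm9 the 8 genes lie at separate places: Atp2a1 at chr7:133589372-133606622 (minus strand), Atp2a2 at chr5:122903531-122952183 (minus), Atp2a3 at chr11:72774671-72806546 (plus), Pln at chr10:53057513-53065787 (plus), Sln at chr9:53698058-53701651 (plus), Slc8a1 at chr17:81772445-82048947 (minus), Atp2b1 at chr10:98377804-98486420 (plus) and Atp2b4 at chr1:135599255-135697618 (minus). No stretch of 100 bases of their GENCODE M1 protein-coding transcripts occurs, on the same strand, in such a transcript of another gene. Noncoding genes, pseudogenes and the reverse strand were not searched. For Slc8a1 the search covered 3294 stretches, against a counted feature of 18636 bases. Of the 3483 exonic bases of Atp2a1 in GENCODE M1, 763 also belong to exons of Rabep2 on the opposite strand. The length of Atp2a1 in the table, 2720 bases, is shorter by that same number, and whether reads on them were counted is not given in the sources used here. The overlaps of Slc8a1 with Gm11096 (8 bases) and of Pln with Gm10942 (24 bases) are short.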

How the data were processed

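RNA was sequenced from 20 libraries of embryonic heart. The authors aligned reads to mm9 (TopHat2 2.0.8b per the labels' processing notes). The paper states that reads were assigned to genes with featureCounts, whereas the name of the deposited data credits both counts and FPKM to USeq. The deposited counts per gene are raw read counts. The FPKM that the authors deposited was made with USeq and equals the count divided by gene length and by the library total. The paper and the labels differ on the library kit and sequencer, the labels' protocol text gives E11.5 for all samples, and the strand setting is not given in the sources used here. A further 20 columns of variance-corrected log2 values and the authors' own comparisons were not used.

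For each line, edgeR 4.0.16 (R 4.3.3) was run on the counts (filterByExpr, TMM, estimateDisp, quasi-likelihood F test, Benjamini-Hochberg over all genes tested, threshold 0.05). The standard error was taken as |log2 fold change|/sqrt(F), and CPM were scaled by TMM. Interactions and the contrast of control stages came from 1 fit of 6 groups. Ratios of FPKM were compared by two-sided exact permutation tests. Alternatives were DESeq2 1.42.0 (its size factors and its Wald test), limma-trend 3.58.1 on log2(FPKM + 0.1) and log2(FPKM + 1), the replicate block, the fit of 6 groups, other low-count filters (at least 1 count in total, or at least 10 in each library), hemoglobin and erythroid genes left out, the column-name genotypes and each library left out. The code was tested on simulated data.

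The 8 genes, the lists of other pumps, regulators and markers, and the rule for named genes (all 8, Kmt2d, up to 6 called list genes per line by size, and the 2 most correlated genes with a mean log2 CPM of at least 1 in all lines) were chosen with earlier results of these data known. Some genes that the rule names are not reported here. Replicates are separate libraries of a group, and p-values measure the spread between them. Intervals are exact at 95% and cover counting error only.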

Additional observations from a re-analysis of the deposited data

Results flagged for a closer look

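In 16 groups of 4 libraries, 3 values stood apart from the other 3 of their group. Chance alone marks about 1 in 20 groups of continuous values, a share that does not hold for counts that are mostly 0. Atp2b1 was at 153.4 CPM in Mesp1Cre control 2, against 131.7 to 134.5 CPM in the other controls. Sln was at 0.03707 CPM in Mesp1Cre control 1 and at 0.3112 CPM in Mesp1Cre mutant 2, which are 1 and 8 reads, against 0 in the other libraries of each group. With the others at 0 any read is marked, so the Sln flags test nothing.

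By edgeR the effect of genotype differed for 4 of the 8 genes in at least 1 pair of lines. For all but Pln this rests on the sample titles of Mef2cAHF::Cre, and Kmt2d itself goes against those titles. The difference in log2 fold change between Mesp1Cre and Tnnt2::Cre was -1.119 for Pln (adjusted p = 0.0251), where 3.04% of all genes passed. Pln did not pass without Tnnt2::Cre control 1, control 2 or mutant 3. Between Mesp1Cre and Mef2cAHF::Cre, by the sample titles, the difference was -3.497 for Atp2a1 (adjusted p = 0.000448), 4.125 for Atp2a3 (adjusted p = 0.00128) and -1.526 for Pln (adjusted p = 0.000818), where 11.3% of all genes passed. Between Mef2cAHF::Cre and Tnnt2::Cre, by the titles, the difference was 2.816 for Atp2a1 (adjusted p = 0.0120) and 1.191 for Atp2b4 (adjusted p = 0.0480), where 3.19% of all genes passed. With 1 library left out, Atp2b4 passed only without Tnnt2::Cre mutant 1. With genotypes from the column names, 0 of the 8 genes passed by edgeR in either difference with Mef2cAHF::Cre. Of all genes, 1.63% passed against Mesp1Cre and 0 of 18391 against Tnnt2::Cre. DESeq2's Wald test called Sln against Mesp1Cre (adjusted p = 0.0459), where it called 4.72% of all genes.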

How the results depend on the processing

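In Mesp1Cre the fall of Atp2a1 passed in all alternatives run, and the fall of Pln and the rise of Atp2a3 passed in all but the male libraries alone, which left 1 of the 8 genes called. The count in this line was 3 in every fit with 1 library left out. In Mef2cAHF::Cre 0 passed in the 6-group fit, 1 with limma-trend on log2(FPKM + 1), which was Sln and none of the 3 called by edgeR (adjusted p = 0.0566 for Atp2a3, 0.063 for Atp2b4 and 0.0711 for Pln), and 0 to 3 with 1 library left out. On log2(FPKM + 0.1) Sln passed and Pln and Atp2b4 did not. In Tnnt2::Cre DESeq2's Wald test called 3 and the test of all genes with at least 1 count called 1 (Atp2b4), and 0 to 1 passed with 1 library left out. For the interactions, 0 to 2 genes passed for Mesp1Cre against Tnnt2::Cre with 1 library left out. For Mef2cAHF::Cre against Tnnt2::Cre by titles, 1 passed with DESeq2 size factors, 0 with the replicate block and 1 to 2 with 1 library left out. Atp2a3 also passed there in the test of all genes with at least 1 count (-2.37, adjusted p = 0.0138 by edgeR), where 829 of 30417 genes passed. For Mesp1Cre against Mef2cAHF::Cre by column names, DESeq2's Wald test called 1.

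The column names turned every sign in Mef2cAHF::Cre: Atp2a1 -0.98, Atp2a2 0.0284, Atp2a3 1.90, Atp2b1 0.0902, Atp2b4 -0.50, Slc8a1 -0.22, Pln -0.59 and Sln -1.95. The other reversals were of genes that did not pass. Slc8a1 in Mesp1Cre was 0.0364 with limma-trend on log2(FPKM + 0.1) and 0.0362 on log2(FPKM + 1), where the median of all genes moved by 0.148 and 0.107. With 1 library left out, Atp2b4 in Mesp1Cre ranged from -0.0882 to 0.362, Atp2a2 in Mef2cAHF::Cre from -0.134 to 0.0883 and Atp2a3 in Tnnt2::Cre from -0.426 to 0.784. For Mesp1Cre against Tnnt2::Cre, Sln ranged from -0.82 to 5.26. For Mesp1Cre against Mef2cAHF::Cre, Sln ranged from -3.71 to 2.37 by titles, and by column names Atp2a3 ranged from -0.125 to 0.75, Atp2b1 from -0.107 to 0.00278 and Slc8a1 from -0.0164 to 0.181. For Mef2cAHF::Cre against Tnnt2::Cre, Slc8a1 ranged from -0.0227 to 0.175 by titles and Atp2b1 from -0.0925 to 0.0568 by column names. The lowest values of Sln came without the 1 Mesp1Cre mutant that holds reads. The log2 ratio of Atp2b4 to Atp2b1 in Mesp1Cre ranged from -0.244 to 0.347 and that of Atp2a3 to Atp2a2 in Tnnt2::Cre from -0.909 to 0.101. The cause was not tested. Of 1139 values of single genes, 1066 kept their direction and side of the threshold.

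Libraries of the same number share only that number, apart from a code in the Mesp1Cre labels whose meaning is not given: the correlations of their deviations were -0.03 to 0.09 in Mesp1Cre, -0.01 to 0.18 in Mef2cAHF::Cre and -0.04 to 0.06 in Tnnt2::Cre, and not every library was closest to its own number. With the replicate block 3, 3 and 0 genes passed in the 3 lines, as without it. Over all genes the Mesp1Cre calls went from 1821 to 1384 with the block, to 2726 with DESeq2's Wald test and to 601 in males, the Mef2cAHF::Cre calls from 482 to 1083 with DESeq2 and to 129 in the 6-group fit, and the Tnnt2::Cre calls from 50 to 360 with DESeq2 and to 896 without mutant 1. Depth limits Sln at E9.0, Atp2a1 and Atp2a3, which rest on few reads.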
